A study of Mus musculus with 20 samples.

Results

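The nitric oxide and arginine metabolism genes described here are 8 genes chosen by name, among them Nos2, Ass1, Asl, Slc7a2, Gch1 and Odc1. They were found by Ensembl identifier among the 55487 genes of a count table of BV-2 microglia, an immortalised wild-type mouse microglial cell line. Long-term cultivated (aged) BV-2 microglia were compared with low-passage, control (young) BV-2 microglia, each either left untreated or given bacterial lipopolysaccharide (LPS) at 100 ng/ml for 6 h. Each of the 4 groups held 5 cultures, 1 from each of 5 batches given in the labels, and each culture gave 1 poly(A) RNA library. All libraries came from a single cell line aged in the dish, so these groups model prolonged culture and hold no other brain cell type. The libraries held 11371508 to 16829292 counts.

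Arginine is the substrate of nitric oxide synthases, which turn it into nitric oxide and citrulline, and a source of ornithine. In rodent macrophages and microglia, bacterial products are known to induce the nitric oxide branch. Citrulline can be rebuilt into arginine, and ornithine feeds the synthesis of polyamines, which dividing cells need.

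The microglial label was compared with marker levels. All 13 microglia and macrophage markers passed the filter on low counts, and their summed level ran from 2618 to 4722 CPM (counts scaled to a library of 1000000) over the 20 libraries, with Cd68, a lysosomal protein of phagocytes, the most abundant. Cx3cr1 and P2ry12, receptors that mark resting microglia, were low, with means of 1.05 and 1.17 CPM in untreated young cultures. Astrocyte markers summed to at most 1.55 CPM in any library, neuron markers to at most 0.413 CPM, oligodendrocyte markers to at most 1.78 CPM and fibroblast and endothelial markers to at most 0.413 CPM. Under LPS the microglia marker sum had a median of 4001 CPM (3352 to 4722) in young and 3142 CPM (2918 to 4161) in aged cultures, so that the groups overlapped. Of the 13 markers, 1 was higher and 6 lower in aged cultures, beside 14.0% and 15.0% of all genes tested. Untreated, the median sum was 3676 CPM (3035 to 4366) in young and 2837 CPM (2618 to 3759) in aged cultures. There 0 of the 13 were higher and 4 lower with age, beside 3.71% and 7.81% of all genes tested. The part of the marker sum in the results was not tested.

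A principal component analysis of the 500 most variable genes placed 92.3% of the variance on the first component, which separated LPS-treated from untreated cultures. Aged LPS culture 3 lay at 38.3 on that axis, while the other aged LPS cultures lay between 26.2 and 28.5. Young untreated culture 1 lay at -27.2, nearer to the LPS-treated cultures than its group, which lay between -37.8 and -33.3.

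Of the 8 genes, 5 passed the filter and were tested in each comparison with edgeR, namely Nos2, Gch1, Slc7a2, Asl and Odc1. Nos2 passed only through the LPS-treated groups. Ass1 had no counts. Per kilobase of exon, Odc1 was the most abundant of the 8 in all 4 groups, with a mean of 73.9 ± 6.10 RPKM (CPM divided by exon length in kilobases; SD, n = 5) in young and 89.7 ± 5.50 RPKM in aged untreated cultures. Slc7a2 (8.31 ± 0.380 RPKM) and Asl (5.13 ± 0.493 RPKM) followed in untreated young cultures, and Gch1 stood at 0.70 ± 0.211 RPKM. With LPS, Nos2 moved from 0.347 ± 0.269 to 67.8 ± 27.3 RPKM in young cultures and became the second most abundant of the 8, ahead of Slc7a2 at 17.9 ± 6.26 and Gch1 at 13.1 ± 2.87 RPKM. In aged LPS-treated cultures Nos2 stood at 23.1 ± 15.1 RPKM, and the next levels, 9.14 ± 2.49 for Slc7a2, 7.16 ± 1.18 for Gch1 and 6.89 ± 0.506 RPKM for Asl, lay within each other's spread.

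**Figure D1:**
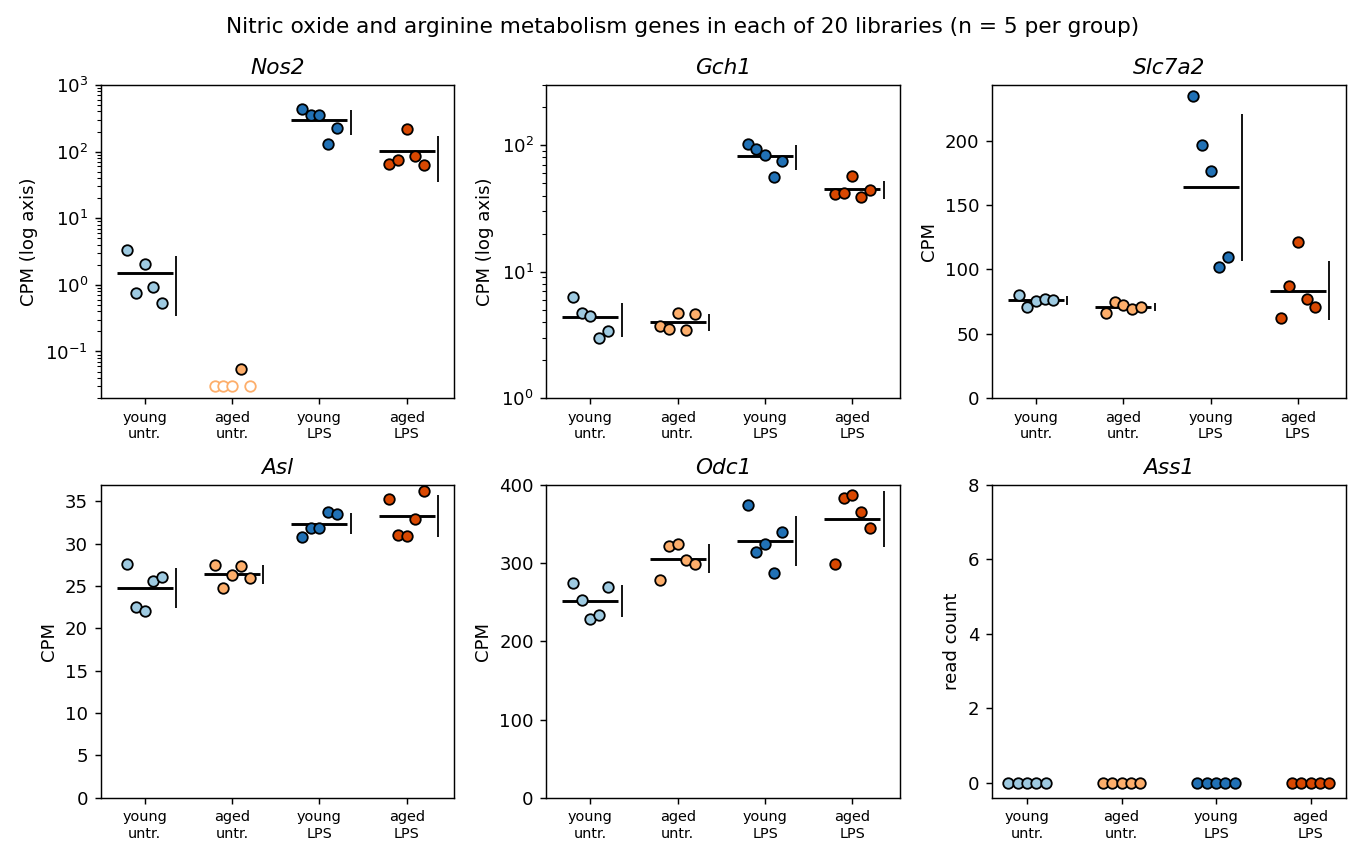
Each point is 1 library and each panel 1 gene, with the 4 groups on the horizontal axis and CPM on the vertical axis (log axes for Nos2 and Gch1; read counts for Ass1). Bars give the mean and side lines the SD (n = 5), and open circles at the lower edge of the Nos2 panel are untreated aged libraries with 0 counts; Nos2 and Gch1 are far higher with LPS, while Ass1 is at 0 counts in every library.

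Nos2 encodes the inducible nitric oxide synthase, the enzyme that makes nitric oxide in activated macrophages. It lies on chromosome 11, from 78920787 to 78960254 on the plus strand of GRCm38. In the untreated young cultures 1 to 5, Nos2 stood at 3.38, 0.766, 2.05, 0.922 and 0.532 CPM, from 49, 12, 34, 14 and 8 reads. In the untreated aged cultures a single read was found over all 5 libraries, in culture 4, and the other 4 libraries held 0. Every young culture was above every aged culture before any stimulus, and in bulk RNA fewer expressing cells and less RNA per cell cannot be told apart.

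The 3 counts taken as the floor correspond to 0.186 CPM on average in the untreated aged libraries. Measured against this floor, Nos2 was at least 8.22-fold higher in untreated young than in untreated aged cultures (mean of 1.53 ± 1.19 CPM, n = 5, in young). Without young culture 1, whose level was the highest, it was at least 5.74-fold higher. The adjusted p of the edgeR test was 0.0439 (0.0144 with the replicate block, and 1.18e-07 with DESeq2), and the edgeR call was lost when any aged untreated library or young untreated library 1, 2 or 3 was left out, with adjusted p up to 0.116 and the same direction each time.

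With LPS, Nos2 stood at 430, 355, 358, 130 and 224 CPM in young cultures 1 to 5, and at 65.7, 74.7, 219.9, 87.2 and 62.1 CPM in aged cultures 1 to 5. Young culture 4 was the lowest of its group and aged culture 3 the highest of its group, so that the groups overlap. Within each batch the aged culture was the lower of the pair, from 6.55 times lower in batch 1 to 1.49 times lower in batch 4.

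At both ages every LPS-treated culture held more Nos2 than every untreated culture. As the gene was tested only because of its level with LPS, its LPS change is given as a size without a p-value. In young cultures Nos2 rose 196-fold as a ratio of means (log2 fold change 7.61 ± 0.48 SE), and 280-fold without young untreated culture 1. In aged cultures it rose at least 547-fold over the floor, and at least 389-fold without aged LPS culture 3.

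Under LPS, Nos2 was lower in aged than in young cultures, with means of 101.9 ± 66.7 and 299 ± 120 CPM (log2 fold change -1.55 ± 0.31, adjusted p = 6.36e-04). Without aged LPS culture 3 the ratio of young to aged means was 4.13 rather than 2.94. The level under LPS was thus lower in aged cultures. The aged fold over baseline is known only as a lower bound, so it is not ranked against the young ratio of means. The difference between the 2 responses is given no p-value either, as Nos2 passed the filter only through the LPS-treated groups. Its fitted size is no measure of the difference because the aged baseline is at the floor.

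**Figure D2:**
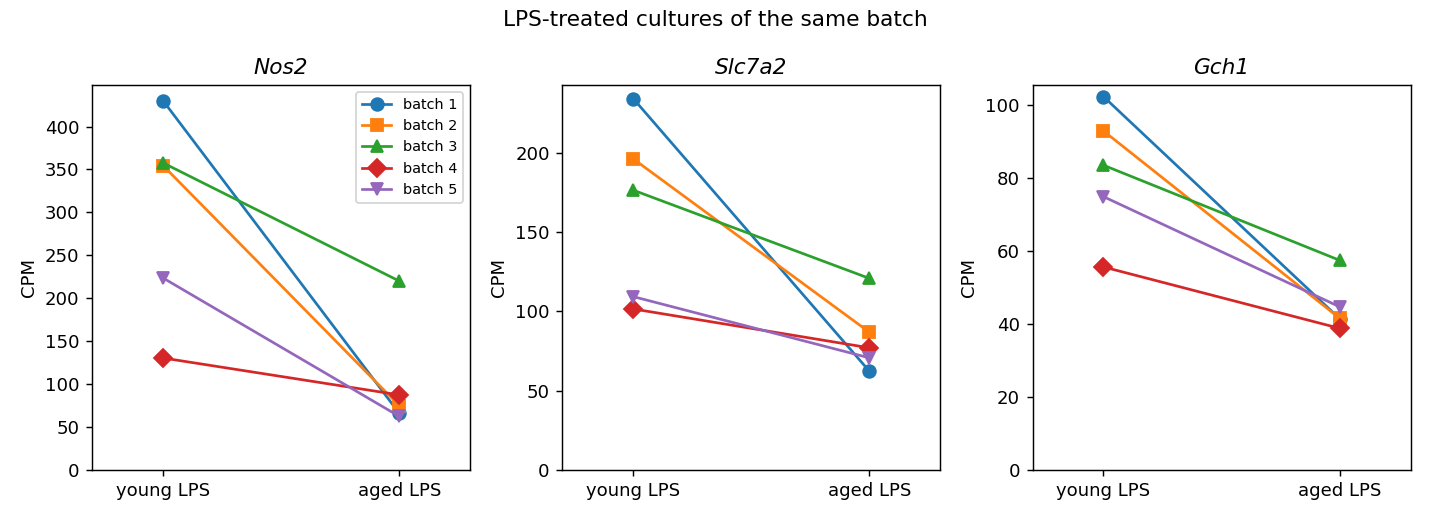
CPM of Nos2, Slc7a2 and Gch1 in the LPS-treated young and aged cultures, with a line joining the cultures of each of the 5 batches. All lines fall from young to aged; batches 1 and 2 fall the most, and aged culture 3 lies above young culture 4 in each panel, and above young culture 5 for Slc7a2.

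Gch1 encodes GTP cyclohydrolase, the rate-limiting enzyme in making tetrahydrobiopterin, the cofactor that nitric oxide synthases need. It lies on chromosome 14, from 47153895 to 47189413 on the minus strand. Its promoter is shown because Gch1 was called higher with LPS at both ages, as was Odc1, whose promoter follows. RefSeq (GRCm38.p6) places the Gch1 promoter, from 250 bases before to 50 after the start, at chr14:47189364-47189663 on the minus strand and that of Odc1 at chr12:17544623-17544922 on the plus strand, and capitals mark matches to the motifs named below.
Gch1: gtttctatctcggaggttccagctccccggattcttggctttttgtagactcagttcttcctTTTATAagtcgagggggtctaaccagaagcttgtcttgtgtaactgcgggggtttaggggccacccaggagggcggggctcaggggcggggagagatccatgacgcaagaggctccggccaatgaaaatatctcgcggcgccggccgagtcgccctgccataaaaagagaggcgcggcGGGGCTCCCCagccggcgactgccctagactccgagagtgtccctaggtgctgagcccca
Odc1: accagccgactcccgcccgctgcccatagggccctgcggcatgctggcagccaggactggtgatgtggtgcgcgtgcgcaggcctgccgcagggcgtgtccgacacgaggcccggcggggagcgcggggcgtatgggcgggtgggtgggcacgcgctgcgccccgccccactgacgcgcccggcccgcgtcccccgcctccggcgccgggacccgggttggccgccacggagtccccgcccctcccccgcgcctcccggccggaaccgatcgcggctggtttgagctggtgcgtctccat

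The Gch1 promoter held 1 match to the NF-kappaB site at position -10 from the start, GGGGCTCCCC, a motif found in 8.46% of 32851 promoters of the same length. It also held 1 match to the TATA box letters TATAAA, read on the other strand at position -188, found in 13.6% of promoters. No match was found in either promoter to the interferon-stimulated response element core (GAAANNGAAA, in 3.44% of promoters), the gamma-activated site (TTCNNNGAA, 8.30%), the AP-1 site (TGANTCA, 7.81%), the C/EBP site (TTGCNNAA, 10.8%), the cAMP response element (TGACGTCA, 1.79%), the C/EBP-ATF core (TGATGNAA, 3.97%), the E-box (CACGTG, 7.15%) or the hypoxia response core it contains (ACGTG, 19.6%). Both strands were searched, and a match is a description of the letters only. GC content was 60.3% for Gch1 and 78.0% for Odc1, against a median of 52.7% over promoters. RefSeq promoters of Nos2, Asl and Slc7a2 were not used here.

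In untreated young cultures 1 to 5, Gch1 stood at 6.34, 4.73, 4.46, 2.96 and 3.39 CPM. In untreated aged cultures it stood at 3.68, 3.50, 4.73, 3.46 and 4.59 CPM. The groups overlap, and the difference was not called (log2 fold change -0.13 ± 0.22, 95% interval -0.59 to 0.33, adjusted p = 0.777).

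With LPS, Gch1 stood at 102.3, 92.9, 83.5, 55.6 and 74.9 CPM in young cultures and at 41.4, 41.5, 57.4, 38.8 and 44.7 CPM in aged cultures. All aged cultures but culture 3 were below all young cultures, and in every batch the aged culture was the lower, by 1.43 to 2.47 times. Gch1 rose 18.7-fold with LPS in young cultures (log2 fold change 4.22 ± 0.18, adjusted p = 3.65e-15) and 11.2-fold in aged cultures (3.48 ± 0.18, adjusted p = 2.31e-13). It was lower in aged than young LPS-treated cultures, with means of 44.7 ± 7.38 and 81.8 ± 17.9 CPM (log2 fold change -0.87 ± 0.14, adjusted p = 8.46e-05). The smaller response in aged cultures was not called by the test of the difference (-0.74 ± 0.26, adjusted p = 0.108), but it was called with the replicate block that pairs cultures of a batch (adjusted p = 0.0335), with DESeq2 (0.0310) and without young untreated library 1, aged LPS library 3 or young LPS library 4 (0.0434, 0.0399 and 0.0247).

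Slc7a2 encodes a cationic amino acid transporter that brings arginine into macrophages. It lies on chromosome 8, from 40862396 to 40922308 on the plus strand, and its exons overlap those of the opposite-strand transcript Gm26584. Untreated cultures were tightly grouped, at 80.4, 70.7, 75.5, 76.7 and 76.4 CPM in young and at 66.1, 74.3, 72.2, 69.0 and 70.9 CPM in aged cultures 1 to 5. The coefficient of variation was 4.56% and 4.47% in these groups.

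With LPS the cultures spread out. Slc7a2 stood at 235, 197, 177, 101.6 and 109.4 CPM in young cultures 1 to 5, and at 62.2, 86.8, 120.9, 77.0 and 70.7 CPM in aged cultures. The coefficient of variation rose to 34.9% in young and 27.3% in aged cultures. Young cultures 4 and 5 lay below aged culture 3, so the groups overlap, while within each batch the aged culture was the lower by 1.32 to 3.77 times.

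Slc7a2 rose 2.15-fold in young cultures (log2 fold change 1.11 ± 0.18, adjusted p = 1.26e-05). In aged cultures the change was 1.18-fold and not called (0.24 ± 0.18, 95% interval -0.13 to 0.62, adjusted p = 0.269), with the LPS-treated culture higher in 3 of 5 batches. Under LPS, aged cultures were lower (-0.97 ± 0.18, adjusted p = 3.04e-04). The responses differed between ages by -0.86 ± 0.26 (adjusted p = 0.0459). Leaving out 1 library lost this call in 17 of 20 cases, with adjusted p up to 0.0998; it was kept without aged LPS library 3, young LPS library 4 or young LPS library 5, at adjusted p as low as 0.00642.

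Slc7a1, the widely expressed transporter of the same family, was more abundant than Slc7a2. Of the summed RPKM of both genes, Slc7a2 made up 20.4% ± 2.11 in young untreated, 18.1% ± 2.17 in aged untreated, 28.0% ± 8.99 in young LPS-treated and 15.5% ± 6.02 in aged LPS-treated cultures (SD, n = 5). The ranges under LPS, 16.8% to 37.8% in young and 9.68% to 25.6% in aged cultures, overlap.

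Ass1 and Asl encode the enzymes that rebuild arginine from citrulline, argininosuccinate synthase and argininosuccinate lyase. Ass1 (chromosome 2, 31470207 to 31520672, plus strand) had 0 counts in all 20 libraries, which allows a level of up to 0.165 to 0.296 CPM by counting error alone, depending on the library. Asl (chromosome 5, 130011258 to 130029247, minus strand) was measured in every library. So the lyase was detected at both ages and the synthase was not detected at this depth.

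Asl stood at 27.6, 22.5, 22.1, 25.6 and 26.1 CPM in young and 27.5, 24.8, 26.3, 27.3 and 26.0 CPM in aged untreated cultures. With LPS it stood at 30.8, 31.9, 31.9, 33.8 and 33.5 CPM in young and 35.3, 31.0, 30.9, 32.9 and 36.3 CPM in aged cultures. At each age every LPS-treated culture lay above every untreated culture, while young and aged cultures overlapped. Asl rose 1.31-fold with LPS in young (log2 fold change 0.39 ± 0.07, adjusted p = 2.21e-05) and 1.26-fold in aged cultures (0.33 ± 0.07, adjusted p = 1.63e-04). Its difference between ages was 0.09 (95% interval -0.04 to 0.23, adjusted p = 0.410) untreated and 0.04 (-0.10 to 0.17, adjusted p = 0.707) under LPS.

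Odc1 encodes ornithine decarboxylase, which turns ornithine into putrescine and opens polyamine synthesis. It lies on chromosome 12, from 17544794 to 17551505 on the plus strand. In untreated cultures it stood at 274.5, 253, 228, 233 and 269 CPM in young and at 279, 322, 325, 304 and 298 CPM in aged cultures 1 to 5. All aged cultures lay above all young cultures. Odc1 was the member that was higher in aged cultures before stimulation (1.22-fold, log2 fold change 0.28 ± 0.07, adjusted p = 0.0166), a call lost without young untreated library 3 (adjusted p = 0.0567).

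With LPS, Odc1 stood at 374, 315, 325, 288 and 340.2 CPM in young and at 299, 383, 388, 366 and 345 CPM in aged cultures, and the ages overlap. It rose 1.31-fold in young (0.38 ± 0.07, adjusted p = 1.03e-04) and 1.17-fold in aged cultures (0.22 ± 0.07, adjusted p = 0.0154). Aged and young LPS-treated cultures were not called different (0.12 ± 0.07, adjusted p = 0.261), nor were the responses (-0.16 ± 0.11, adjusted p = 0.439).

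**Figure D3:**
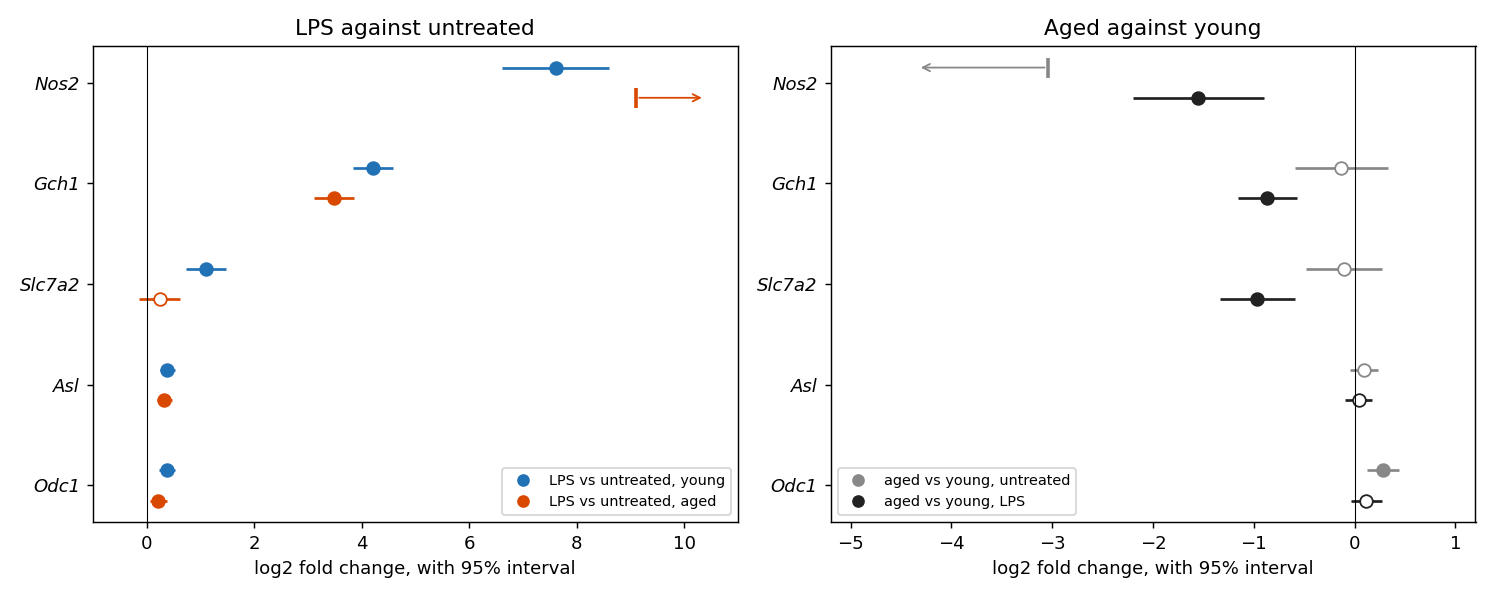
Log2 fold changes of the 5 tested genes with 95% intervals, LPS against untreated at each age (left) and aged against young without and with LPS (right). Filled points had an adjusted p below 0.05, and arrows start at the lower bound of a Nos2 change against the floor. The filled Nos2 point for LPS in young cultures shows a size only and is not read as a test. Nos2, Gch1 and Slc7a2 lie left of 0 for aged against young under LPS, while Asl and Odc1 lie near 0.

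Counted together, 1 of the 5 tested genes was higher (Odc1) and 1 lower (Nos2) in aged than in young untreated cultures, where 3.71% of the 12799 genes tested were higher and 7.81% lower. With LPS, Nos2, which passed the filter only through its counts with LPS, was higher at both ages, and of the other 4 tested genes 4 were higher in young and 3 in aged cultures, where 31.2% and 27.5% of genes tested were higher and 33.5% and 26.9% lower. Under LPS, 3 of 5 were lower and none higher in aged than in young cultures, where 15.0% of genes tested were lower and 14.0% higher. For the difference of the responses, 1 of 5 was called, Slc7a2, with a smaller response in aged cultures. Over all genes tested, 2.27% had a lower and 4.12% a higher response. With the replicate block 2 were called, and with DESeq2 3. The DESeq2 count includes Nos2, whose difference is not read as a result. It passed the filter only through its counts with LPS, and its aged baseline is at the floor. The median log2 fold change of the 5 genes was -0.87 for aged against young cultures under LPS, beside 0.01 over all genes. With young untreated culture 1 and aged LPS culture 3 both left out, a setting chosen after seeing the data, the values for aged against young cultures under LPS were -2.05 for Nos2, -1.14 for Slc7a2 and -0.97 for Gch1, and the same 3 genes were called. The contrasts share groups and are not independent of each other.

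Scaling bears on the small changes. With library sizes alone in place of TMM factors, the median of all genes moved by -0.22 for LPS in young and -0.16 in aged cultures, and the share of called genes that were higher fell from 48.2% to 27.3% and from 50.6% to 28.4%. Under that scaling Asl (0.17) and Odc1 (0.16) stayed above the median of all genes (-0.23) and called in young cultures, whereas Odc1 lost its call in aged cultures (0.06, adjusted p = 0.479) and gained one for aged against young cultures under LPS (0.20, adjusted p = 0.0311). The share of called genes that were higher went from 48.3% to 70.1% for aged against young under LPS, from 32.2% to 42.2% untreated and from 64.4% to 81.3% for the difference of the responses. Nos2, Gch1 and Slc7a2 kept their direction and side of the threshold under it in every comparison.

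The rest of the pathways was read from 12 lists of 112 genes, of which 84 were tested. In untreated cultures 5 were higher (Hsp90aa1, Prmt1, Prmt5, Srm and Mtap) and 11 lower with age; with LPS 42 rose and 25 fell in young cultures and 40 rose and 18 fell in aged cultures; under LPS 8 were higher and 24 lower in aged cultures. Over all genes tested, 3.71% were higher and 7.81% lower with age untreated, 31.2% rose and 33.5% fell with LPS in young and 27.5% and 26.9% in aged cultures, and 14.0% were higher and 15.0% lower with age under LPS. The median log2 fold change was 0.16 for LPS at either age, beside -0.01 in young and 0.00 in aged cultures over all genes. With the replicate block 27 rather than 16 were called for age in untreated cultures, and 9 rather than 5 for the difference of the responses.

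**Figure D4:**
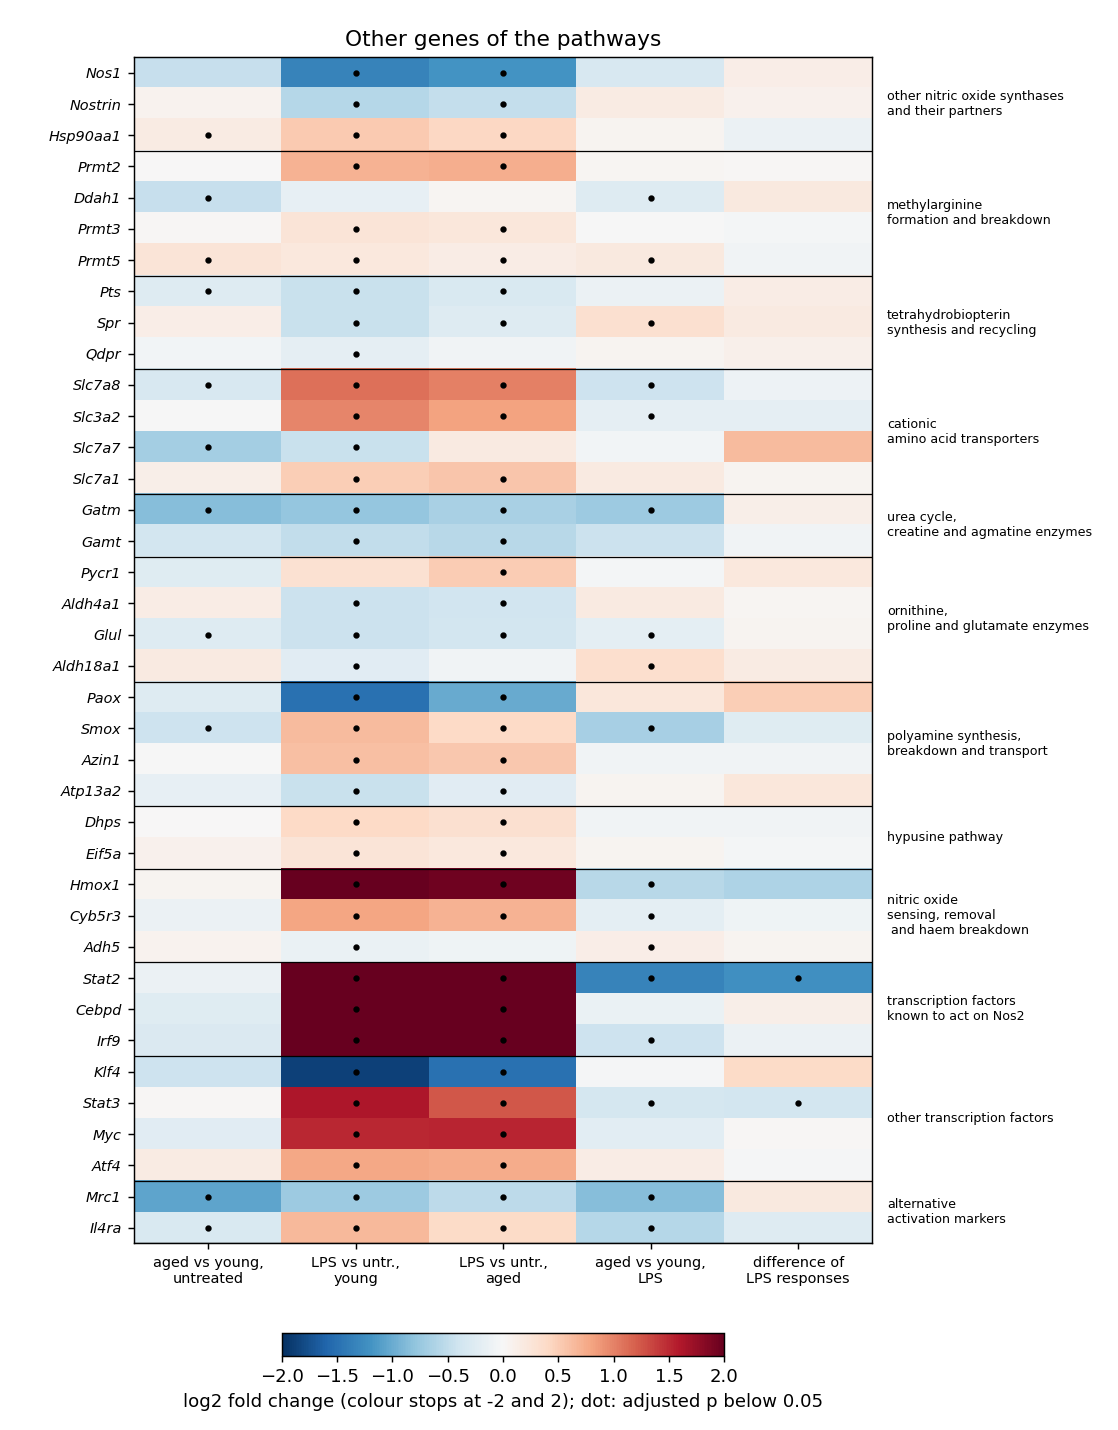
Log2 fold changes of the pathway genes named by a fixed rule (at most 4 per list, those with the largest called change), in rows, for the 5 contrasts in columns. Red is higher and blue lower in the group named before "vs", and dots mark an adjusted p below 0.05; the transcription factors of Nos2 are red with LPS at both ages, and Gatm and Mrc1 are blue in the 4 columns before the last.

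Among the other nitric oxide synthases, Nos1, the neuronal form, was the one tested. It stood at 3.59 CPM in untreated young cultures and fell with LPS at both ages (-1.33 and -1.20 on the log2 scale, adjusted p = 6.99e-05 and 5.93e-04). Nos3, the endothelial form, was at or below 0.385 CPM in every group mean. Of 9 tested synthase genes and partners, 4 rose and 3 fell with LPS at each age. The shares over all genes tested were 31.2% up and 33.5% down in young and 27.5% and 26.9% in aged cultures. Hsp90aa1 (0.52 in young and 0.41 in aged cultures) and Hsp90ab1 (0.44 and 0.33), chaperones of nitric oxide synthases, rose, as did Dynll1, a dynein light chain that binds Nos1 (0.28 and 0.17). Beside Nos1, Nostrin, which binds the endothelial form (-0.57 and -0.48), and Nosip, an interaction partner (-0.22 and -0.12), fell. The Nosip call in aged cultures was lost in 8 of 20 repeats with a single library left out and in 3 of 8 other settings.

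The other tested genes of the cofactor pathway did not rise with Gch1. Of 6 tested genes of tetrahydrobiopterin synthesis and recycling beside Gch1, none rose with LPS, 4 fell in young cultures and 3 in aged cultures. Among all genes tested, 31.2% rose and 33.5% fell in young cultures, and 27.5% rose and 26.9% fell in aged cultures. Pts and Spr, which encode the enzymes downstream of GTP cyclohydrolase, fell by 0.45 and 0.44 on the log2 scale in young and by 0.30 and 0.25 in aged cultures. Qdpr, which recycles the cofactor, fell in young cultures (-0.18, adjusted p = 0.0126). Spr was higher in aged than in young LPS-treated cultures (0.32, adjusted p = 0.00541), in contrast to Gch1.

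The Prmt methyltransferases form methylarginines, of which only some inhibit nitric oxide synthases, and the Ddah enzymes clear some of these. Of 9 tested genes, 6 rose and 1 fell with LPS in young cultures, and 4 rose in aged cultures, namely Prmt1 (0.15), Prmt2 (0.73), Prmt3 (0.23) and Prmt5 (0.15). Among all genes tested, 31.2% rose and 33.5% fell in young cultures, and 27.5% rose and 26.9% fell in aged cultures. Prmt7 was the gene that fell in young cultures (-0.14, adjusted p = 0.0319). This call was lost in 5 of 20 repeats with a single library left out and in 4 of 8 other settings. Prmt1, the main source of asymmetric dimethylarginine, was higher in untreated aged cultures (0.21, adjusted p = 0.0138), and its rise in aged cultures turned to -0.01 with library sizes alone. Prmt5 was higher in aged cultures untreated (0.26, adjusted p = 1.90e-04) and under LPS (0.19, adjusted p = 8.24e-04), while its rise with LPS (0.21 and 0.15) turned to -0.01 at each age with library sizes alone. Ddah1, which clears asymmetric dimethylarginine, was lower in aged cultures untreated (-0.45, adjusted p = 3.48e-04) and under LPS (-0.25, adjusted p = 0.0136).

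Of 6 tested transporters beside Slc7a2, 3 rose with LPS at both ages, while 3 fell in young and 1 in aged cultures. The shares over all genes tested were 31.2% up and 33.5% down in young and 27.5% and 26.9% in aged cultures. Slc7a8, a neutral amino acid transporter, rose 2.16-fold in young cultures (1.11) and by 1.01 on the log2 scale in aged cultures, and was lower with age untreated (-0.32, adjusted p = 0.0208) and under LPS (-0.42, adjusted p = 8.14e-04). Slc3a2, the heavy chain with which such transporters pair, rose by 0.98 and 0.81 on the log2 scale. Slc7a1 rose by 0.49 in young and by 0.55 in aged cultures, with no called difference between ages under LPS (0.18, adjusted p = 0.249). Slc25a15, the mitochondrial ornithine carrier, fell at both ages (-0.49 and -0.28), and Slc7a7, of the y+L system, was lower in untreated aged cultures (-0.68, adjusted p = 0.00932) and fell with LPS in young cultures (-0.45, adjusted p = 0.0222).

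The urea cycle enzymes and the agmatine enzyme listed beside Asl were at or near 0. Otc and Nags had group means of 0, Cps1 of at most 0.0368 CPM, and Agmat of at most 0.0138 CPM. Gatm, which uses arginine and glycine in the making of creatine, stood at 87.5 ± 6.2 CPM in untreated young cultures and was lower with age (-0.85, adjusted p = 1.73e-07) and with LPS (-0.78 in young and -0.65 in aged cultures), and again lower with age under LPS (-0.72, adjusted p = 9.55e-07). Gamt, the next enzyme of that pathway, also fell with LPS (-0.49, adjusted p = 0.0485, and -0.56, adjusted p = 0.0381). These calls lay near the threshold and were lost in 14 and 7 of 20 repeats with a single library left out, the young value being -0.335 (adjusted p = 0.174) without young untreated culture 1.

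On the ornithine side, Oat, which links ornithine to proline and glutamate, was not called in any contrast. Glul, glutamine synthetase, was lower with age (-0.26 untreated, -0.20 under LPS) and with LPS (-0.42 and -0.37). Aldh18a1, which makes the shared precursor of ornithine and proline, fell with LPS in young cultures (-0.23, adjusted p = 0.0299) and was higher in aged cultures under LPS (0.34, adjusted p = 0.00691). Pycr1, a proline-forming reductase, rose in aged cultures (0.51, adjusted p = 0.00434), and Aldh4a1, of proline breakdown, fell at both ages (-0.42 and -0.39).

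Of 14 tested polyamine genes beside Odc1, 6 rose and 3 fell with LPS in young cultures, and 5 rose and 3 fell in aged cultures (Srm, Azin1, Smox, Mtap and Atp13a3 up, Paox, Atp13a2 and Sat2 down). The shares over all genes tested were 31.2% up and 33.5% down in young and 27.5% and 26.9% in aged cultures. Srm, spermidine synthase, changed in the direction of Odc1, higher in aged untreated cultures (0.19, adjusted p = 0.0177) and higher with LPS (0.32 and 0.28). Azin1, an inhibitor of the antizymes that mark ornithine decarboxylase for breakdown, rose (0.61 and 0.54). The oxidases moved in opposite directions, Paox falling (-1.49 and -1.0) and Smox rising (0.63 and 0.39), and Smox was lower in aged cultures untreated (-0.42, adjusted p = 0.0166) and under LPS (-0.66, adjusted p = 8.95e-05). Atp13a2, a lysosomal polyamine exporter (-0.45 and -0.22), and Sat2, a low-level acetyltransferase (-0.87 and -0.98), fell. Mtap (0.38 and 0.21) and Atp13a3, a transporter (0.41 and 0.43), rose. In the hypusine pathway, which uses spermidine to modify the translation factor eIF5A, Dhps (0.39 and 0.32) and Eif5a (0.25 and 0.21) rose at both ages.

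The classical receptor of nitric oxide was not detected at this depth, since Gucy1a1, Gucy1a2 and Gucy1b1 of soluble guanylate cyclase had 0 counts in every library. Of the list of genes for nitric oxide sensing, its removal and haem breakdown, 3 were tested. Hmox1, haem oxygenase, which breaks down haem, rose by 2.56 in young and by 1.95 in aged cultures and was lower in aged cultures under LPS (-0.55, adjusted p = 0.0263). Cyb5r3, a reductase, rose by 0.78 and 0.70 and was also lower with age under LPS (-0.19, adjusted p = 0.00762). Adh5, which clears S-nitrosoglutathione, fell in young cultures (-0.14, adjusted p = 0.0110) and was higher with age under LPS (0.13, adjusted p = 0.0397). The age call was lost in 7 of 20 repeats with a single library left out and in 5 of 8 other settings, for example DESeq2 (0.117, adjusted p = 0.0590).

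Of 14 tested transcription factors known to act on Nos2, 13 rose with LPS at each age, Fos being the exception (-0.05 and 0.18, not called). Over all genes tested 31.2% rose in young and 27.5% in aged cultures. Under LPS 11 of 14 were lower in aged cultures and none higher, beside 15.0% and 14.0% of all genes tested. The age difference under LPS was -1.34 for Stat2 (adjusted p = 1.68e-05), -1.11 for Irf1 (2.00e-05) and -0.41 for Irf9 (0.00154) of the interferon-linked factors, and -0.28 for Rela and -0.25 for Nfkb1 of the NF-kappaB family. The response was smaller in aged cultures for Stat2 (-1.23, adjusted p = 0.0155) and Irf1 (-0.85, adjusted p = 0.0349), the Irf1 call being lost in 12 of 20 repeats with a single library left out, for example without young untreated culture 1 (-0.78, adjusted p = 0.0645). Cebpd (-0.13, adjusted p = 0.401) and Jun (0.00, adjusted p = 0.969) were not called different with age under LPS.

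Of 6 other tested transcription factors known to act on arginine or polyamine metabolism genes, 4 rose and 2 fell with LPS at each age. Among all genes tested, 31.2% rose and 33.5% fell in young cultures, and 27.5% rose and 26.9% fell in aged cultures. Myc, which can drive Odc1, rose from 3.55 to 10.1 CPM in young cultures (1.5 on the log2 scale) and by 1.53 on the log2 scale in aged cultures, and Atf4, of the amino acid response, rose by 0.77 and 0.74. Klf4 fell (-1.87 and -1.49), as did Stat6, the interleukin-4 factor (-0.34 and -0.26). The responses of Stat3 (-0.37, adjusted p = 0.0239) and Max, the partner of Myc (-0.33, adjusted p = 7.42e-04), were smaller in aged cultures.

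Of 9 alternative activation markers, 4 were tested, and Chil3, Retnla and Cd163 had group means of 0. Mrc1, the mannose receptor, was lower with age (-1.06 untreated, adjusted p = 8.68e-05, and -0.85 under LPS, adjusted p = 2.81e-04) and with LPS (-0.73 and -0.53). Il4ra, the interleukin-4 receptor, rose with LPS (0.65 and 0.39) and was lower with age untreated (-0.30, adjusted p = 0.0132) and under LPS (-0.57, adjusted p = 8.39e-06).

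A list of 10 well-known LPS response genes gives the setting of these changes. All 10 rose at both ages, beside 31.2% of genes tested in young and 27.5% in aged cultures. Tnf rose by 5.07 and 4.75 and Ptgs2 by 5.59 and 5.03 on the log2 scale. Il6 held at most 4 reads in any untreated library, and Il1b at most 9 in untreated aged libraries. As for Nos2, the rise of Il6 and Il1b is a description and not a test. Under LPS 8 of 10 were lower in aged cultures and none higher, beside 15.0% and 14.0% of all genes tested. Tnf (-0.88, adjusted p = 9.15e-05) and Il1b (-2.25, adjusted p = 9.77e-04) were among the lower ones. Acod1 (-0.75, adjusted p = 0.0996) and Saa3 (-0.59, adjusted p = 0.0621) were not called. Aged LPS culture 3 was the highest of its group for 8 of the 10, and young LPS culture 4 the lowest of its group for 9 of the 10, the same cultures that stood out for Nos2.

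The genes whose log2 CPM followed each member most closely over the 20 libraries, among 10883 genes, were listed as a description, since the points share 4 groups. For Nos2 they were Gbp2 (Pearson r = 0.997), Cxcl10 (0.994) and Cmpk2 (0.994), all known as interferon-induced genes. For Gch1 they were Epsti1 (0.996), Plaur (0.995) and Syk (0.994), and for Slc7a2 Vps54 (0.951), Il15 (0.946) and Rnf135 (0.937). For Asl they were Vat1 (0.967), Stx3 (0.956) and Slc25a44 (0.953), and for Odc1 Ctps (0.938), Dars (0.937) and Mtap (0.916), the last of which salvages a by-product of polyamine synthesis. Gbp2, like Nos2, was near 0 in untreated aged cultures, with means of 1.22, 0.0734, 242 and 64.0 CPM in young untreated, aged untreated, young LPS-treated and aged LPS-treated cultures.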

How the data were processed

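Per the labels, RNA of BV-2 cultures went into Illumina stranded mRNA libraries. Per the submitters' processing notes and the study's methods, the authors used FastQC 0.11.8, STAR 2.6.1d with GRCm38 and featureCounts 1.5.1, and deposited raw counts per Ensembl gene; whether counting used strand is not given in the sources used here. Gene names, positions and exon lengths came from GENCODE M21 (GRCm38), which held 55227 of 55487 identifiers.

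The counts were fitted with edgeR 4.0.16 (TMM factors, filterByExpr, quasi-likelihood F-test, 12799 genes tested, all 20 libraries in 1 fit with group as the only term), with Benjamini-Hochberg adjustment over all genes tested and 0.05 as the threshold for a call. CPM values are counts scaled to a TMM-scaled library of 1000000. P-values measure the spread between these cultures of 1 cell line. Per the study's methods, the aged cells were frozen after long-term culture and later used as aliquots. How many separate long-term cultures were kept is not given there, so the p-values may not cover the spread between such cultures.

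The labels give the replicate number as the batch, so it pairs cultures across groups. Same-numbered cultures deviated together with a mean r of 0.146 over 30 pairs of libraries (-0.214 to 0.394), against -0.0358 for different numbers. No 2 libraries of a group agreed within sampling noise (chi-square per degree of freedom of 2.42 or more over 40 pairs). On simulated counts for aged against young untreated cultures, with 200 genes changed 2-fold, edgeR recovered 183 with 15 false calls among 12646 genes.

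Of the 8 members, 6 are described; the other 2 and some genes of the pathway lists are not reported here. Of each pathway list, at most 4 genes were chosen by rule, those with the largest called change and a mean of at least 1 log2 CPM. Some of these are among the genes not reported. Further genes are named to account for small counts or as examples. Members and lists were chosen with earlier results of these data known. Alternatives were DESeq2 1.42.0, the replicate block, other size factors and filters, only the groups compared, and each library left out. Library totals of 11371508 to 16829292 counts put 3 counts at 0.165 to 0.296 CPM.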

Additional observations from a re-analysis of the deposited data

Results flagged for a closer look

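Nos2 at 219.9 CPM in aged LPS culture 3 lay apart from the other 4 aged LPS cultures, at 62.1 to 87.2 CPM, the gap being 0.841 of the group's range. The same culture lay apart on the first principal component of all libraries, at 38.3, with a gap of 0.810. Of 23 sets of 5 values looked at in this way, about 1 in 20 would be marked by chance.

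The LPS responses differed between aged and young cultures, by the edgeR test of the difference itself (aged minus young, log2 scale), for Slc7a2 (-0.86, adjusted p = 0.0459), Stat2 (-1.23, adjusted p = 0.0155), Stat3 (-0.37, adjusted p = 0.0239), Irf1 (-0.85, adjusted p = 0.0349) and Max (-0.33, adjusted p = 7.42e-04). The Slc7a2 call was lost in 17 of 20 repeats with a single library left out, and that of Irf1 in 12 of 20. Of 84 pathway genes tested, 4 had a smaller and 1 a larger response in aged cultures, the larger one in the tetrahydrobiopterin list. Over all genes tested, 2.27% had a lower and 4.12% a higher response. Of the LPS response genes, Acod1 (2.63, adjusted p = 0.00669) and Saa3 (1.67, adjusted p = 0.0450) had the larger fold in aged cultures. DESeq2 gave 2.59 for Acod1, with no adjusted p. Without young untreated culture 1 these differences were 1.71 (adjusted p = 0.000104) and 1.03 (adjusted p = 0.0545), and the Saa3 call was lost in 12 of 20 such repeats. Acod1 started from 4.07 CPM in aged and 41.9 CPM in young untreated cultures and reached 2105 and 3550 CPM with LPS. Young untreated culture 1 held 120.9 CPM of Acod1, against a group median of 22.6 CPM.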

How the results depend on the processing

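Of 689 repeats of the members' fold changes under other settings, 651 kept their direction and their side of the threshold. For aged against young untreated cultures, the count of members called went from 2 to 1 with at least 10 counts in every library and with only the groups compared, both of which remove Nos2 from the test, and ran from 0 to 2 with single libraries left out, while genes called ran from 954 to 1646 (1475 with all libraries) and pathway genes called from 10 to 19. The 3 libraries that moved the count of genes by over 1.5 times were young untreated 2 (977), young untreated 3 (954) and aged untreated 4 (981). For the difference of the responses, the count of members called went from 1 to 3 with DESeq2, Nos2 being included there although its difference is not read as a result. It went to 2 with the replicate block and to 2 without both libraries apart on the first principal component, a setting chosen after seeing the data. With single libraries left out it ran from 0 to 2, while pathway genes called ran from 3 (without aged LPS 4) to 7. The replicate block raised pathway genes called to 27 for age in untreated cultures and to 9 for the difference of the responses. Among the members it changed no call but that of Gch1 given above.

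Some directions reversed. The difference of the Asl responses became 0.00522 with library sizes alone, and Gch1 in aged against young untreated cultures became 0.0338 without young untreated library 1 (from -0.24 to 0.0338 over single libraries left out) and 0.0335 without both libraries apart. With library sizes alone the called LPS rises of Prmt5 (0.21 in young and 0.15 in aged cultures) became -0.0086 and -0.0138, and that of Prmt1 in aged cultures (0.15) became -0.0134. The cause of these changes was not tested. Of 4957 repeats for the other named genes, 4752 kept direction and call and 202 lost the call, 16 of these with library sizes alone, namely the LPS rises of Prmt3, Eif5a and Dynll1 at both ages, of Prmt1 and Srm in young and of Smox and Mtap in aged cultures, the age differences of Ddah1, Slc3a2, Glul, Hmox1 and Cyb5r3 under LPS and that of Pts in untreated cultures. Without young untreated library 1 the calls lost included those for age in untreated cultures of Pts (-0.229, adjusted p = 0.116), Tnf (-0.473, 0.109) and Cxcl10 (-2.53, 0.0948) and those for LPS in young cultures of Qdpr (-0.13, 0.0529), Aldh18a1 (-0.227, 0.051), Prmt7 (-0.0924, 0.127) and Sat2 (-0.84, 0.0698). Without aged LPS library 3 they included those for age under LPS of Slc3a2 (-0.134, 0.0712), Hmox1 (-0.436, 0.0658) and Srm (0.136, 0.0585) and those for LPS in aged cultures of Nosip (-0.115, 0.0871) and Sat2 (-0.884, 0.0745). Ass1 has no value in the main fit, and Nos2 none with at least 10 counts in every library.

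The counts of Nos2 in untreated aged cultures and of Ass1 lie at or near the floor, so their levels are known only as upper limits. The cause of these low counts was not tested.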
